A study of Mus musculus with 9 samples.

Results

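The mitochondrial ribosomal protein genes are the nuclear genes that encode the protein parts of the ribosomes inside mitochondria. They were taken from the count table as the symbols that begin with Mrpl or Mrps followed by a digit, leaving out 5 symbols that carry the pseudogene mark -ps, which gave 78 of 49585 genes. All 78 passed the filter on low counts, as did 11619 genes of the table. By their known place in the ribosome 51 of them belong to the large subunit, among them Mrps18a and Mrps30, whose names point to the small subunit but whose proteins sit in the large one. A further 26 belong to the small subunit, and Mrps36, also described as a part of the 2-oxoglutarate dehydrogenase complex, was kept apart. Of the genes assigned to a subunit, 46 have a counterpart in bacterial ribosomes and 31 are specific to mitochondria.

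Mitochondrial ribosomes translate the few mRNAs of the mitochondrial genome, all of which encode subunits of the complexes of oxidative phosphorylation. Their small subunit reads the mRNA and holds the decoding centre, and their large subunit joins amino acids and passes the new chain through a tunnel towards the inner membrane. The ribosomal RNAs are made inside mitochondria, whereas every ribosomal protein is made in the cytosol and imported. Haematopoietic stem cells (HSCs) are known for low protein synthesis and low mitochondrial activity compared with the progenitors they give rise to.

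The libraries came from wild-type C57BL/6 mouse bone marrow. HSCs sorted as CD34-CD150+KSL cells (KSL stands for Kit+, Sca-1+ and negative for lineage markers) were expanded in F12 medium that held 0.1% polyvinyl alcohol (PVA), PS and ITS supplements as the labels abbreviate them, thrombopoietin at 100 ng/ml and stem cell factor at 10 ng/ml. The time in culture was 10 days in the series' design text and 1 week in the growth protocol. From such cultures 3 populations were sorted, with 3 libraries each. The first is CD201+CD150+CD48-KSL, called CD201+CD48- here, and the second is CD201+CD150+CD48+KSL, called CD201+CD48+. The third is CD201-KSL by the treatment labels and the design text, while the sample titles add CD150+CD48+, and it is called CD201- here. All 3 groups share strain, genotype, starting cells and medium, and differ in the sorted surface markers. More than 5000 cells per population were sorted for bulk RNA sequencing with paired reads of 36 nt. Nothing in the labels ties replicates to separate mice or cultures, so p-values measure the spread between libraries, which may be technical alone. In such bulk samples fewer cells of a type and less RNA per cell cannot be told apart.

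Total counts per library were 3810123 to 7072885, of which 9921 to 19729 fell on the 78 genes. The sorted antigen followed the labels, since Cd48 stood at 5.09 to 6.32 CPM (counts per 1000000 counts of the library) in CD201+CD48- libraries, 75 to 88.0 CPM in CD201+CD48+ and 120 to 127 CPM in CD201-. All 8 HSC and gate markers, Procr (CD201) among them, were higher in CD201+CD48- than in CD201- cells. CD201- replicate 3 stood apart, with 584 genes more than 2-fold from the mean of the other 2 CD201- libraries, but the median deviation of the 78 genes in it was -0.0036 on the log2 scale. Cell cycle genes moved with the groups. All 17 S phase markers were called lower in each of the 3 comparisons, and their summed level was 2646 to 2712 CPM in CD201+CD48-, 3563 to 3695 CPM in CD201+CD48+ and 4541 to 5082 CPM in CD201- libraries. Of 13 G2 and M phase markers, 12 were called lower in CD201+CD48- against CD201-, 4 in CD201+CD48+ against CD201- and 12 in CD201+CD48- against CD201+CD48+, with summed levels of 3931 to 4037, 5514 to 5709 and 6151 to 7618 CPM in the order given for S phase. Megakaryocyte markers summed to 1272 to 1331 CPM in CD201+CD48-, 249 to 265 in CD201+CD48+ and 462 to 539 in CD201- libraries. Of the 6, 5 were called higher and 1 was called lower in CD201+CD48- against CD201- cells. Granulocyte and monocyte markers summed to 140 to 159, 103 to 112 and 67.5 to 96.3 CPM in the same order, with S100a9 at 0 counts, and mast cell and basophil markers to 5.09 to 9.35, 2.89 to 4.61 and 35.9 to 44.0 CPM. Single granulocyte and monocyte markers did not all follow their sum. Of 4 tested, 2 were called lower and 1 higher in CD201+CD48- than in CD201- cells. Erythroid markers summed to 196 to 221, 136 to 148 and 49.97 to 92.5 CPM, with Hba-a1 and Car1 at 0 counts, and lymphoid markers to 4.55 to 6.53, 2.39 to 4.95 and 1.31 to 1.99 CPM, with Cd3e at 0 counts. The part of the cell cycle and of other cell types in the results below was not tested.

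Transcripts of the mitochondrial ribosome were least abundant in CD201+CD48- cells, intermediate in CD201+CD48+ cells and most abundant in CD201- cells. CPM use library sizes scaled by TMM factors, which balance the libraries on the bulk of genes. The 78 genes summed to 2390, 2507 and 2455 CPM in the CD201+CD48- libraries, to 2759, 2794 and 2713 CPM in CD201+CD48+ and to 3148, 3199 and 3284 CPM in CD201-. The 3 groups did not overlap. Relative to CD201- cells the mean sum was 23.7% lower in CD201+CD48- and 14.2% lower in CD201+CD48+ cells, and it was 11.1% lower in CD201+CD48- than in CD201+CD48+ cells. As a plain share of all counts, with no TMM scaling, the 78 genes took 0.251% to 0.260%, 0.279% to 0.283% and 0.287% to 0.307%. The order of groups was the same, again with no overlap. Mean shares were 0.256%, 0.281% and 0.299%, so that the differences between groups were smaller than with TMM factors.

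Both subunits showed this order. The 51 large subunit genes summed to 1538 to 1598 CPM in CD201+CD48-, 1720 to 1762 CPM in CD201+CD48+ and 1955 to 1985 CPM in CD201- libraries, so that the CD201+CD48- mean was 20.7% below the CD201- mean. The 26 small subunit genes summed to 841 to 899, 985 to 1021 and 1180 to 1288 CPM, and the same difference was 28.5%. The ratio of large to small subunit sums was 1.83, 1.78 and 1.76 in the CD201+CD48- libraries, 1.70, 1.73 and 1.75 in CD201+CD48+ and 1.66, 1.65 and 1.54 in CD201-. CD201+CD48- ratios thus lay above all others, and those of CD201- below all others. The plot of summed levels by library shows the same order in both subunits.

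**Figure D1:**
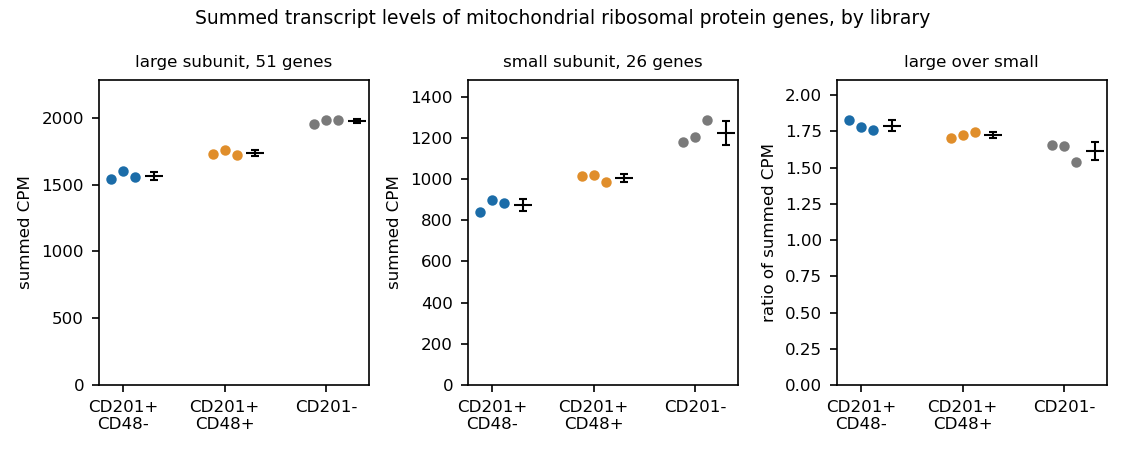
Summed CPM of the 51 large subunit genes (left) and 26 small subunit genes (middle), and their ratio (right), on linear axes from 0. Each point is 1 library, and the bar beside it is the mean ± SD of 3 libraries. In both subunits the CD201+CD48- libraries lie lowest and the CD201- libraries highest, with no overlap between groups.

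For other parts of the translation machinery the size of the differences between sums depended on the scaling too, and in places so did the direction. With TMM factors, relative to CD201- cells the summed level of cytosolic ribosomal proteins was 14% lower in CD201+CD48- and 12.7% lower in CD201+CD48+ cells, but only 1.52% lower in CD201+CD48- than in CD201+CD48+ cells. As a plain share of all counts cytosolic ribosomal proteins took 4.671% to 5.004% in CD201+CD48-, 4.666% to 4.961% in CD201+CD48+ and 4.83% to 5.146% in CD201- libraries, with overlap between all groups. The transcripts encoded in mitochondrial DNA summed to 11573 to 11941 CPM, 11210 to 13036 CPM and 12580 to 13001 CPM in that order, with the CD201+CD48+ libraries overlapping both other groups, and their mean sums were 8.18%, 2.52% and 5.81% lower in the 3 comparisons. As a plain share of counts their means were 1.224%, 1.268% and 1.187%, lowest in CD201- cells, so that the direction relative to CD201- cells turned with the scaling. These differences between gene sets are described here and were not tested.

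Promoter sequences are shown for 6 genes that the results below turn on. Mrps26 and Mrpl18 had the smallest adjusted p-values of CD201+CD48- against CD201- cells, Mrps12 encodes the decoding protein of the small subunit, Mrpl46 and Mrps11 are transcribed away from each other from starts 42 bases apart, and Mrpl52 was the one gene that was called higher. Each window runs from 250 bases before to 50 bases after a RefSeq start, 300 bases in all. Windows are in build GRCm38.p6 and read 5′ to 3′ on the gene's strand. The Mrpl18 window lies inside the annotated gene (chr17:12911345-12917787, minus strand) and not at its outer end. Capitals mark matches, on either strand, to the ETS motif CCGGAAG, bound by GABPA, or the YY1 motif AAGATGGC, both known from promoters of nuclear genes for mitochondrial proteins. The windows lie at chr2:130563507-130563806 (plus strand) for Mrps26, chr17:12916042-12916341 (minus) for Mrpl18, chr7:28741772-28742071 (minus) for Mrps12, chr7:78783040-78783339 (minus) for Mrpl46, chr7:78782881-78783180 (plus) for Mrps11 and chr14:54426659-54426958 (plus) for Mrpl52.
Mrps26: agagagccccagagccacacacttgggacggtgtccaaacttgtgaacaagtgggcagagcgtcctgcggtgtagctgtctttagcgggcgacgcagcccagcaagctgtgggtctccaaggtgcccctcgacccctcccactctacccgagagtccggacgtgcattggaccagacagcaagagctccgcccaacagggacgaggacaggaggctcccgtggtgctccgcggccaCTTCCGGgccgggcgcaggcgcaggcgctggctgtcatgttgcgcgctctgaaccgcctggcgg
Mrpl18: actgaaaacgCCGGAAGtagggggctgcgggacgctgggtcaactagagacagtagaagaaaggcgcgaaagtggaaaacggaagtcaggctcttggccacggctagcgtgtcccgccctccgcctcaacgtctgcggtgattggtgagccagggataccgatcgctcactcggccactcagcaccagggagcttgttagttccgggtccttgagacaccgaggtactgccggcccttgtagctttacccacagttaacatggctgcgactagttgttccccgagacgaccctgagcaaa
Mrps12: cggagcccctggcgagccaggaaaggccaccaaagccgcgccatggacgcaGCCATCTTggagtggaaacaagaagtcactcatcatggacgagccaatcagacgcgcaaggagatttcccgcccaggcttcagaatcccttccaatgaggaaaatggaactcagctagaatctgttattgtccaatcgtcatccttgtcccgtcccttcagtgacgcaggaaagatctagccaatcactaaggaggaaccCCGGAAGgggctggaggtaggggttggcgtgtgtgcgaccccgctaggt
Mrpl46: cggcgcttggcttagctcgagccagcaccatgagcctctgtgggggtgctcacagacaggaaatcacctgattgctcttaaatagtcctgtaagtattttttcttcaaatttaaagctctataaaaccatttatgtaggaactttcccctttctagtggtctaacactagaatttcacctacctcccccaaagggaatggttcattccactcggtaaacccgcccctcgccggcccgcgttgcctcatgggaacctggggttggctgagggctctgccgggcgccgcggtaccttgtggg
Mrps11: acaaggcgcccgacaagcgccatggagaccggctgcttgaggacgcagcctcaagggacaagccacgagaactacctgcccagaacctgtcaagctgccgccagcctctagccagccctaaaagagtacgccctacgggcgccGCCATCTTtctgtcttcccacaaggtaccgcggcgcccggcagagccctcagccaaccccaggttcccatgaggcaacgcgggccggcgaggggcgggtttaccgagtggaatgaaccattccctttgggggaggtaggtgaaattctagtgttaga
Mrpl52: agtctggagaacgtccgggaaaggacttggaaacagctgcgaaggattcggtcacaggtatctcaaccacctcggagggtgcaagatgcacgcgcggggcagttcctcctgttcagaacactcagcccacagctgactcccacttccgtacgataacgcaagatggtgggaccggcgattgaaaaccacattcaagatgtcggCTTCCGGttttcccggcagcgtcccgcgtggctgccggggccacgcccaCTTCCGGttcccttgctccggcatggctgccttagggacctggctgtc
The Mrps26 window held 1 ETS match, that of Mrpl18 held 1, that of Mrps12 held 1 ETS and 1 YY1 match, that of Mrps11 held 1 YY1 match and that of Mrpl52 held 2 ETS matches. In the Mrpl46 window no match to either motif was found.

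Promoter windows were given for 69 of the 78 genes. The ETS motif was found in 26 of them (37.7%), against 21.4% of 8936 tested genes with a window and 9.93% of all 27025 genes with one. The YY1 motif was found in 12 (17.4%), against 5.54% and 3.19%. NRF1 is a factor known for nuclear genes of mitochondrial proteins, and both its motif GCGCATGCG and the shorter core CGCATGCG inside it were found in 7 (10.1%), against 4.43% and 4.67% of tested genes. A match to ETS, the NRF1 core or YY1 was found in 38 windows. The SP1 motif GGGCGG was found in 34 (49.3%, against 70.0% of tested genes), CCAAT in 27 (39.1%, against 43.4%), the E-box CACGTG in 5 (7.25%, against 12%), the CRE TGACGTCA in 2 (2.9%, against 3.66%) and the TATA box TATAAA in 5 (7.25%, against 7.99%). Both strands were searched throughout. Genes called lower in CD201+CD48- relative to CD201- cells held the ETS motif in 13 of 36 windows (36.1%) and the others in 39.4% of 33, so that the share of ETS matches was about the same in both. YY1 matches were in 19.4% and 15.2%, and NRF1 core matches in 5.56% and 15.2%. These are matches of letters in a window, not measured binding.

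The first comparison set the CD201+CD48- cells, those with the surface markers of HSCs, against the CD201- cells of the same kind of culture. In CD201+CD48- cells 44 of the 78 genes fell at an adjusted p under 0.05 (edgeR quasi-likelihood F test with Benjamini-Hochberg adjustment over all genes tested), or 56.4%, where 23.9% of all tested genes were called lower. One gene, Mrpl52, was called higher, where 24.2% of all tested genes were, and 33 did not pass. The median log2 fold change of the 78 genes was -0.37, against 0.0032 over all genes tested, and 73 of the 78 values were below 0. Values ran from -1.10 (Mrpl53) to 0.47 (Mrpl52), and 21 were below -0.5. In 45 genes all 3 CD201+CD48- libraries lay below all 3 CD201- libraries, which was so for 27.2% of all tested genes. The reverse held for 1, against 28% of all tested genes. Of the 44 genes, 22 were called lower under every one of 19 alternative settings. With library size alone as the scaling, which raised the median of all tested genes by 0.17, 22 were called lower, and the median of the 78 relative to that of all genes was -0.38 with either scaling.

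By subunit, 20 of 26 small subunit genes fell, with a median of -0.47, and 24 of 51 large subunit genes fell while 1 rose, with a median of -0.35. By origin, 27 of 46 genes with a bacterial counterpart fell, with a median of -0.39, as did 17 of 31 genes specific to mitochondria, with a median of -0.35 and 1 gene that rose. The plot of log2 fold changes shows each gene with its standard error.

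**Figure D2:**
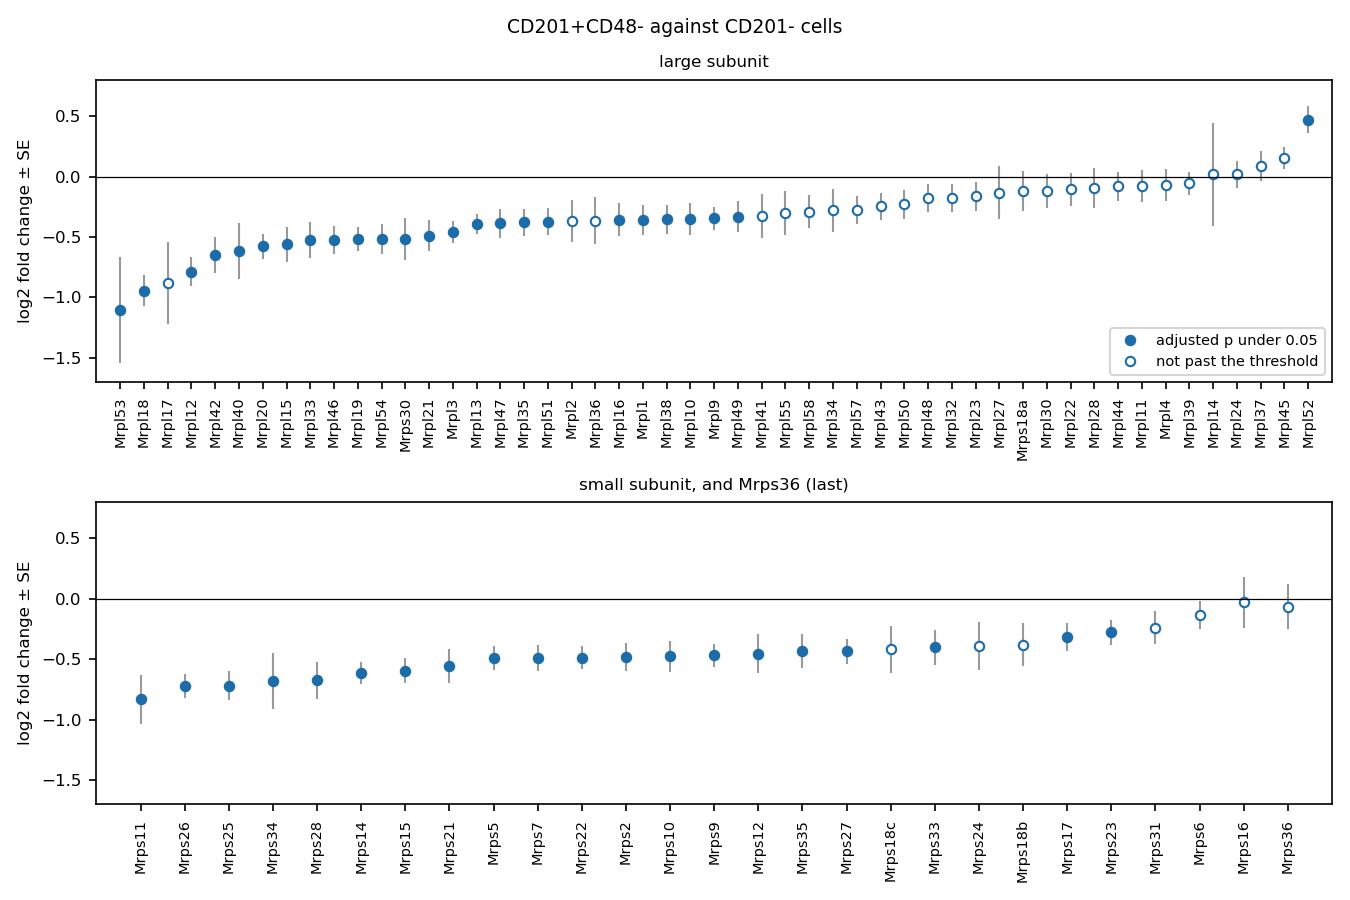
log2 fold change ± SE of each mitochondrial ribosomal protein gene in CD201+CD48- against CD201- cells, sorted within the large subunit (top) and the small subunit (bottom). Filled points have an adjusted p under 0.05 and open points do not. Nearly all points lie below 0, and Mrpl52, at 0.47, is the one filled point above it.

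Among small subunit genes Mrps26, at chr2:130563757-130565394, had the smallest adjusted p. MRPS26 is a protein that only mitochondrial ribosomes have, and the Mrps26 promoter is printed above. Mrps26 stood at 37.8, 41.7 and 41.2 CPM in CD201+CD48- libraries, 51.1, 44.0 and 41.0 CPM in CD201+CD48+ and 67.9, 66.1 and 64.7 CPM in CD201-. Every CD201- library lay above every CD201+ library, while both CD201+ groups overlapped. The log2 fold change in CD201+CD48- against CD201- cells was -0.72 ± 0.10 (SE; adjusted p = 2.88e-05).

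Mrps14 and Mrps15 encode proteins with bacterial counterparts in the small subunit. Mrps14 (chr1:160195215-160201186) stood at 41.7, 40.2 and 44.3 CPM in CD201+CD48-, 53.1, 54.6 and 55.01 in CD201+CD48+ and 64.2, 61.3 and 67.7 in CD201- libraries. The 3 groups were fully separate, and the log2 fold change of CD201+CD48- against CD201- was -0.61 ± 0.09 (adjusted p = 3.83e-05). Mrps15 (chr4:126046928-126055536) stood at 44.3, 49.8 and 49.8 CPM, 51.6 to 59.9 CPM and 66.5 to 79.1 CPM in that order of groups, again with no overlap, and changed by -0.59 ± 0.10 (adjusted p = 1.71e-04). Mrps25, specific to mitochondria, lies at chr6:92169512-92184023, where it overlaps Nr2c2. Mrps25 stood at 54.2, 49.5 and 54.2 CPM in CD201+CD48-, 58.4 to 67.3 CPM in CD201+CD48+ and 74.6, 79.4 and 107 CPM in CD201- libraries. Its groups did not overlap either, although CD201- replicate 3 was far above the other CD201- values, and its log2 fold change was -0.72 ± 0.12 (adjusted p = 1.72e-04).

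Mrps22, a mitochondria-specific gene, stood at 38.3 to 44.5 CPM in CD201+CD48-, 50.2 to 51.4 in CD201+CD48+ and 53.8 to 61.1 in CD201- libraries. It fell by 0.49 ± 0.09 on the log2 scale (adjusted p = 5.81e-04). Mrps11 encodes the counterpart of bacterial S11, which sits on the platform of the subunit. Mrps11 (chr7:78783131-78792988) stood at 11.8, 10.6 and 11.7 CPM in CD201+CD48-, 12.5 to 13.8 CPM in CD201+CD48+ and 14.2, 19.4 and 27.6 CPM in CD201- libraries. The CD201- libraries were above all others but far apart from each other, and the log2 fold change was -0.83 ± 0.21 (adjusted p = 0.00345). Without CD201- replicate 3, the highest of them, it was -0.55 ± 0.18 (adjusted p = 0.00729). Mrps12, the protein of the decoding centre, stood at 12.9, 15.7 and 15.3 CPM in CD201+CD48- and at 20.8, 22.2 and 16.7 CPM in CD201- libraries, a change of -0.45 ± 0.16 (adjusted p = 0.0285). The Mrps12 call was lost without CD201+CD48- replicate 1 (adjusted p = 0.129), without CD201- replicate 1 (0.0697) and without CD201- replicate 2 (0.103), with log2 fold changes from -0.43 to -0.36, and it was also lost with DESeq2 (0.0523), upper-quartile scaling (0.0708) and library size alone (0.187).

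Among large subunit genes Mrpl18 had the smallest adjusted p. Its protein belongs to the central protuberance, where in bacteria it binds the 5S ribosomal RNA. Mrpl18 lies at chr17:12911345-12917787, where its annotation overlaps that of Tcp1 (a subunit of the cytosolic chaperonin), so that reads of both cannot be told apart if they were counted without strand. Mrpl18 stood at 51.02, 67.0 and 55.4 CPM in CD201+CD48-, 71.8, 73.1 and 65.3 in CD201+CD48+ and 102, 96.0 and 134 in CD201- libraries. Its CD201- values lay above all others, and the log2 fold change was -0.94 ± 0.13 (adjusted p = 2.91e-05). Tcp1 itself had a log2 fold change of -0.83 ± 0.12.

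Mrpl12 encodes the protein of the flexible stalk that contacts elongation factors. Mrpl12 (chr11:120484637-120488754) stood at 57.4, 64.7 and 45.2 CPM in CD201+CD48-, 73.0, 70.3 and 68.1 in CD201+CD48+ and 94.1, 108 and 85.5 in CD201- libraries, with 3 separate groups. The log2 fold change was -0.79 ± 0.12 (adjusted p = 6.37e-05). Mrpl20 and Mrpl19 have bacterial counterparts in the body of the large subunit. Mrpl20 (chr4:155802878-155808831) stood at 29.8 to 32.1 CPM in CD201+CD48-, 35.8 to 38.6 in CD201+CD48+ and 40.8 to 50.02 in CD201- libraries, and changed by -0.58 ± 0.11 (adjusted p = 3.56e-04). Mrpl19 (chr6:81957826-81965949, overlapping Gcfc2) stood at 35.9 to 40.2, 43.9 to 51.8 and 53.4 to 55.6 CPM, and changed by -0.52 ± 0.10 (adjusted p = 4.50e-04). In both, no library of one group lay within the range of another.

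Mrpl52 was the exception. MRPL52 is specific to mitochondria, and Mrpl52 (chr14:54426909-54429750) overlaps no other annotated gene. Mrpl52 stood at 50.3, 55.1 and 55.1 CPM in CD201+CD48-, 40.1, 41.4 and 39.9 in CD201+CD48+ and 40.7, 43.2 and 31.6 in CD201- libraries. All CD201+CD48- values were above the rest, whereas those of the other groups overlapped. It was higher in CD201+CD48- than in CD201- cells by 0.47 ± 0.11 on the log2 scale (adjusted p = 0.00284), and this call held under all 19 alternatives. The next largest values were 0.15 ± 0.09 for Mrpl45, the protein that faces the inner membrane at the tunnel exit (adjusted p = 0.185), 0.09 ± 0.12 for Mrpl37 (adjusted p = 0.591) and 0.02 ± 0.11 for Mrpl24 (adjusted p = 0.892), none of which passed in the fit reported. Mrpl45 was called higher with library size alone (0.32, adjusted p = 0.00572), with upper-quartile scaling (0.22, 0.0447) and without CD201- replicate 3 (0.22, 0.0401). Mrpl45 stood at 62.2 to 68.1 CPM in CD201+CD48-, 63.0 to 67.1 in CD201+CD48+ and 53.8 to 64.7 in CD201- libraries, so that its groups overlapped.

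Single libraries set the values of a few genes. Mrpl17 stood at 6.36 CPM in CD201+CD48- replicate 1 but at 23.0 and 23.7 CPM in the others, at 25.1 to 28.9 in CD201+CD48+ and at 30.3 to 31.8 in CD201- libraries. Its log2 fold change of -0.88 ± 0.34 did not pass (adjusted p = 0.0543), while without that library it was -0.42 ± 0.13 and passed (adjusted p = 0.0184). It also passed without CD201+CD48- replicate 2 (adjusted p = 0.0268) or 3 (0.0171). Mrpl40 had its lowest value in CD201+CD48- replicate 1 too, at 9.89 CPM beside 22.2 and 20.8 CPM, and 22.8 to 31.1 CPM in CD201- cells. Its call (-0.62 ± 0.23, adjusted p = 0.0423) was lost without that library, at -0.29 ± 0.16 (adjusted p = 0.172), and without any 1 of 5 other libraries, at adjusted p-values from 0.0529 to 0.143 (CD201- replicates 1 and 3 and all 3 CD201+CD48+ libraries). CD201- replicate 3 was low for Mrps24, at 32.0 CPM beside 60.2 and 62.6 CPM, against 34.2 to 43.7 CPM in CD201+CD48- and 37.4 to 40.8 CPM in CD201+CD48+. Mrps24 did not pass with all libraries (-0.39 ± 0.20, adjusted p = 0.126) and was -0.65 ± 0.11 without that one (adjusted p = 3.906e-07). Mrpl14 had its lowest value there too, at 2.19 CPM beside 10.6 and 7.32 CPM, and its log2 fold change was 0.02 ± 0.43 with that library and -0.40 without it, neither past the threshold. Mrps24 and Mrpl40 were singled out after their values were seen.

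Mrpl53, which had the lowest level of all 78 genes, gave the most negative fold change of this comparison with the least support. It stood at 0.883, 1.01 and 1.99 CPM in CD201+CD48- and at 2.66, 1.94 and 3.73 CPM in CD201- libraries, a change of -1.10 ± 0.44 (adjusted p = 0.0489). The groups overlapped, and the call held in only 4 of 17 alternatives that gave a value. It was lost without any 1 of 7 libraries, at adjusted p-values from 0.0588 to 0.191: CD201+CD48- replicate 1 or 2, CD201- replicate 1 or 3 or any CD201+CD48+ library. In CD201+CD48+ libraries Mrpl53 stood at 1.37, 0.945 and 0.825 CPM, below all CD201- libraries. That change of -1.40 ± 0.43 (adjusted p = 0.0233) was called in 14 of 17 alternatives. It lost its call without CD201+CD48+ replicate 2 or 3 or CD201- replicate 3.

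The 3 homologues of bacterial protein S18 take different places in the mitochondrial ribosome, and none of them passed with all libraries in the fit reported. Mrps18c, the one at the bacterial site, had a log2 fold change of -0.42 ± 0.19 (adjusted p = 0.0876). Mrps18b, elsewhere in the small subunit, had -0.38 ± 0.18 (adjusted p = 0.0884), and Mrps18a, in the large subunit, -0.12 ± 0.16 (adjusted p = 0.576). With Mrps18c at 11.5 to 17.7 CPM in CD201+CD48- and 18.6 to 21.9 in CD201- libraries these groups did not overlap, whereas those of Mrps18a did, at 19.9 to 21.9 and 17.97 to 26.5 CPM. Mrps18b passed without CD201+CD48- replicate 3 (-0.57 ± 0.18, adjusted p = 0.0227) or without CD201- replicate 3 (-0.44 ± 0.18, 0.0372), and Mrps18c passed without the count filter (-0.43 ± 0.17, 0.0393). Mrps36 stood at 9.60 to 11.96 CPM in CD201+CD48- and 10.1 to 12.8 in CD201- libraries, a log2 fold change of -0.06 ± 0.19 that did not pass (adjusted p = 0.805).

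Since 25 of the 78 genes overlap another annotated gene, their share of calls was set beside that of the rest. Of those 25, 13 were called lower with a median of -0.36, and of the other 53, 31 were called lower with a median of -0.38. The 78 genes lie on 17 chromosomes, 11 of them on chromosome 11 and 8 on chromosome 17.

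The second comparison set CD201+ cells that carry CD48 against CD201- cells. It uses the same CD201- libraries as the first, so the 2 sets of values are not independent. In CD201+CD48+ cells 19 of the 78 genes fell (24.4%), where 14.3% of all tested genes were called lower, and 0 were called higher, where 14.8% of all tested genes were. At an unadjusted p under 0.05 there were 26 genes in either direction by the edgeR test. The share of all tested genes at that threshold is not given here, so this count has no background to be read against. DESeq2 called 16 lower and 0 higher, beside 1535 and 1447 of all 11619 tested genes. The median log2 fold change was -0.20, against -0.0022 over all tested genes, and 68 of 78 values were below 0. All 3 CD201+CD48+ libraries lay below all 3 CD201- libraries in 33 genes, against 20.3% of all tested genes, and above them in 1, against 21.4%. By subunit, 10 of 26 small subunit genes fell (median -0.24) and 9 of 51 large subunit genes (median -0.17). By origin, 13 of 46 genes with a bacterial counterpart fell and 6 of 31 genes specific to mitochondria. Leaving out 1 CD201+CD48+ library cut the count of genes called lower from 19 to 9, 12 or 6 (without replicate 1, 2 or 3). Over all tested genes it fell from 1661 of 11619 to 1220 of 11796, 1194 of 11799 or 1073 of 11795. Without replicate 3 the share of the 78 genes called lower was thus below that of all tested genes. Of the 19, 4 were called lower under every alternative.

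Those 4 were Mrps26, Mrpl18, Mrps25 and Mrpl51. Mrps26, Mrpl18 and Mrps25, whose values are given above, had log2 fold changes of -0.55 ± 0.10 (adjusted p = 6.49e-04), -0.66 ± 0.12 (adjusted p = 0.00117) and -0.46 ± 0.12 (adjusted p = 0.00793) in CD201+CD48+ against CD201- cells. Without CD201- replicate 3 the Mrps25 value was -0.29 ± 0.09 (adjusted p = 0.0077). Mrpl51, a mitochondria-specific gene of the large subunit, stood at 24.1, 25.1 and 24.8 CPM in CD201+CD48+, 28.6, 26.02 and 23.7 in CD201+CD48- and 35.6, 32.7 and 33.5 in CD201- libraries. Mrpl51 was thus as low in CD201+CD48+ as in CD201+CD48- libraries, which overlapped, and below CD201- in both, with log2 fold changes of -0.46 ± 0.11 (adjusted p = 0.00492) for CD201+CD48+ and -0.37 ± 0.11 (adjusted p = 0.0111) for CD201+CD48-. The latter call was lost without CD201+CD48- replicate 3 (-0.31, adjusted p = 0.0573) and with library size alone (-0.20, 0.169).

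Mrpl12 fell by 0.45 ± 0.11 (adjusted p = 0.00831) in this comparison, a call lost with library size alone (-0.32, adjusted p = 0.0658). The calls of the next 3 genes were lost without some single libraries. Mrpl42, specific to mitochondria, stood at 30.4, 38.4 and 32.5 CPM in CD201+CD48+ and 38.3, 47.1 and 60.05 in CD201- libraries, a change of -0.53 ± 0.14 (adjusted p = 0.0123). That call was lost without CD201+CD48+ replicate 1 (-0.46, adjusted p = 0.0621) or 3 (-0.50, 0.0545), and without CD201- replicate 3, the highest value, the change was -0.34 ± 0.12 and kept its call (adjusted p = 0.0145). Mrpl21, with a bacterial counterpart, stood at 25.3 to 28.7 CPM in CD201+CD48+ and 31.2 to 42.3 in CD201- libraries, a change of -0.46 ± 0.13 (adjusted p = 0.0127) that was lost without CD201+CD48+ replicate 3 (-0.41, adjusted p = 0.0649) and with library size alone (-0.32, 0.0563). Mrps12 stood at 12.8, 15.7 and 12.2 CPM in CD201+CD48+ libraries and changed by -0.56 ± 0.16 (adjusted p = 0.0139), a call lost without CD201- replicate 2 (-0.47, adjusted p = 0.0567) or CD201+CD48+ replicate 1 (-0.52, 0.0516) or 3 (-0.48, 0.0743) and with library size alone (-0.43, 0.0684).

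The third comparison set both CD201+ populations against each other and so tested the difference between them directly. Of the 78 genes, 5 fell in CD201+CD48- cells relative to CD201+CD48+ cells (6.41%), where 6.31% of all tested genes were called lower, a share near the background. One, Mrpl52, was higher, where 9.05% of all tested genes were. The median log2 fold change was -0.17, against -0.0054 over all tested genes, 66 of 78 values were below 0, and all 3 CD201+CD48- libraries lay below all 3 CD201+CD48+ libraries in 24 genes, against 19.7% of all tested genes (above in 1, against 21%). Without CD201- replicate 3, which belongs to neither group, 19 genes were called lower with a median of -0.18, and with only the 2 groups in the fit 17 were. Calls over all tested genes rose as well in these fits, from 733 of 11619 to 1712 of 11794 and 1576 of 11527 called lower. Leaving out any 1 CD201+ library gave 1 to 3 genes called lower: 3, 3 and 2 without CD201+CD48- replicate 1, 2 or 3 and 2, 1 and 2 without CD201+CD48+ replicate 1, 2 or 3. Over all tested genes those fits called 360 to 491 lower.

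Mrps14 was the gene called lower in this comparison under every alternative. Its 41.7, 40.2 and 44.3 CPM in CD201+CD48- and 53.1, 54.6 and 55.01 CPM in CD201+CD48+ libraries gave a log2 fold change of -0.37 ± 0.09 (adjusted p = 0.00958). Against CD201- cells the CD201+CD48+ value of Mrps14 was -0.25 ± 0.08 (adjusted p = 0.0375), a call that held in 7 of 19 alternatives. It was lost without CD201- replicate 1 or 3 or any 1 of the CD201+CD48+ libraries, at adjusted p-values from 0.0696 to 0.0959. It was also lost with DESeq2, the replicate block (adjusted p = 0.0529), no count filter, a minimum count of 50, only the groups compared, upper-quartile scaling and library size alone (up to 0.345). In the fit reported Mrps14 was the one gene called lower in all 3 comparisons.

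Mrpl13, whose bacterial counterpart L13 joins the ribosome early in assembly, stood at 58.8, 52.8 and 59.6 CPM in CD201+CD48-, 67.8, 72.8 and 73.9 in CD201+CD48+ and 74.6, 76.6 and 73.9 in CD201- libraries. It changed by -0.32 ± 0.08 between the CD201+ populations (adjusted p = 0.0143), and its CD201+CD48+ value against CD201- cells was -0.07 ± 0.08 (adjusted p = 0.555). Mrpl1, the protein of the mobile L1 stalk, stood at 39.9, 29.1 and 33.7 CPM in CD201+CD48-, 42.4, 46.3 and 46.3 in CD201+CD48+ and 48.03, 38.5 and 46.0 in CD201- libraries. Its log2 fold change between the CD201+ populations was -0.38 ± 0.12 (adjusted p = 0.0447), and the CD201+CD48+ and CD201- libraries overlapped. Its CD201+CD48- and CD201- libraries overlapped too, and the call of CD201+CD48- against CD201- (adjusted p = 0.0281) held in 13 of 19 alternatives and was lost without CD201+CD48- replicate 2 or 3 or CD201- replicate 1 (adjusted p from 0.0807 to 0.124). Mrpl19 and Mrps22 had log2 fold changes of -0.33 ± 0.10 (adjusted p = 0.0304) and -0.31 ± 0.09 (adjusted p = 0.033). Mrpl52 was higher in CD201+CD48- than in CD201+CD48+ cells by 0.40 ± 0.11 (adjusted p = 0.0209), and its CD201+CD48+ value against CD201- cells was 0.07 ± 0.11 (adjusted p = 0.678).

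These calls between the CD201+ populations were lost without some of the 6 libraries, while the fold changes kept their sign. The Mrpl13 call was lost without CD201+CD48- replicate 2 or CD201+CD48+ replicate 2 or 3, with log2 fold changes from -0.32 to -0.27 and adjusted p from 0.0519 to 0.0765. The Mrpl1 call was lost without CD201+CD48- replicate 2 or 3 or any CD201+CD48+ library (-0.43 to -0.29, adjusted p from 0.0676 to 0.185). The Mrpl19 call was lost without any CD201+CD48- library or CD201+CD48+ replicate 1 or 2 (-0.37 to -0.28, 0.0519 to 0.129), and that of Mrps22 without CD201+CD48- replicate 1 or 3 or any CD201+CD48+ library (-0.32 to -0.27, 0.0693 to 0.154). That of Mrpl52 was lost without CD201+CD48- replicate 2 or 3 or any CD201+CD48+ library (0.38 to 0.41, 0.0613 to 0.0885).

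Across the 3 populations the mean level of 57 of the 78 genes (73.1%) increased from CD201+CD48- over CD201+CD48+ to CD201-, an order that 32.1% of all tested genes followed. The opposite order was seen in 1 gene, Mrpl52, against 31.2% of all tested genes. The mean was highest in CD201+CD48+ cells in 9 genes (11.5%, against 18.7%), among them Mrpl1, and lowest there in 11 (14.1%, against 18%), among them Mrpl51, Mrps12 and Mrpl53. In calls, 17 genes (21.8%, against 9.44% of all tested genes) were lower than CD201- in both CD201+ populations with no call between them. For 22 (28.2%, against 8.57%) the one call was that of CD201+CD48- against CD201-, so that a difference between the CD201+ populations was not shown for them either. Another 4 (Mrpl1, Mrpl13, Mrpl19 and Mrps22; 5.13%, against 2.86%) were called lower in CD201+CD48- cells than in both other populations. For 1 (Mrpl41, specific to mitochondria; 1.28%, against 1.01%) the one call was that of CD201+CD48+ against CD201-. This Mrpl41 call (-0.51 ± 0.18, adjusted p = 0.0446) held in only 6 of 19 alternatives. The remaining 32 (41%, against 48.5%) were called in none. The plot of 12 genes by library shows these patterns.

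**Figure D3:**
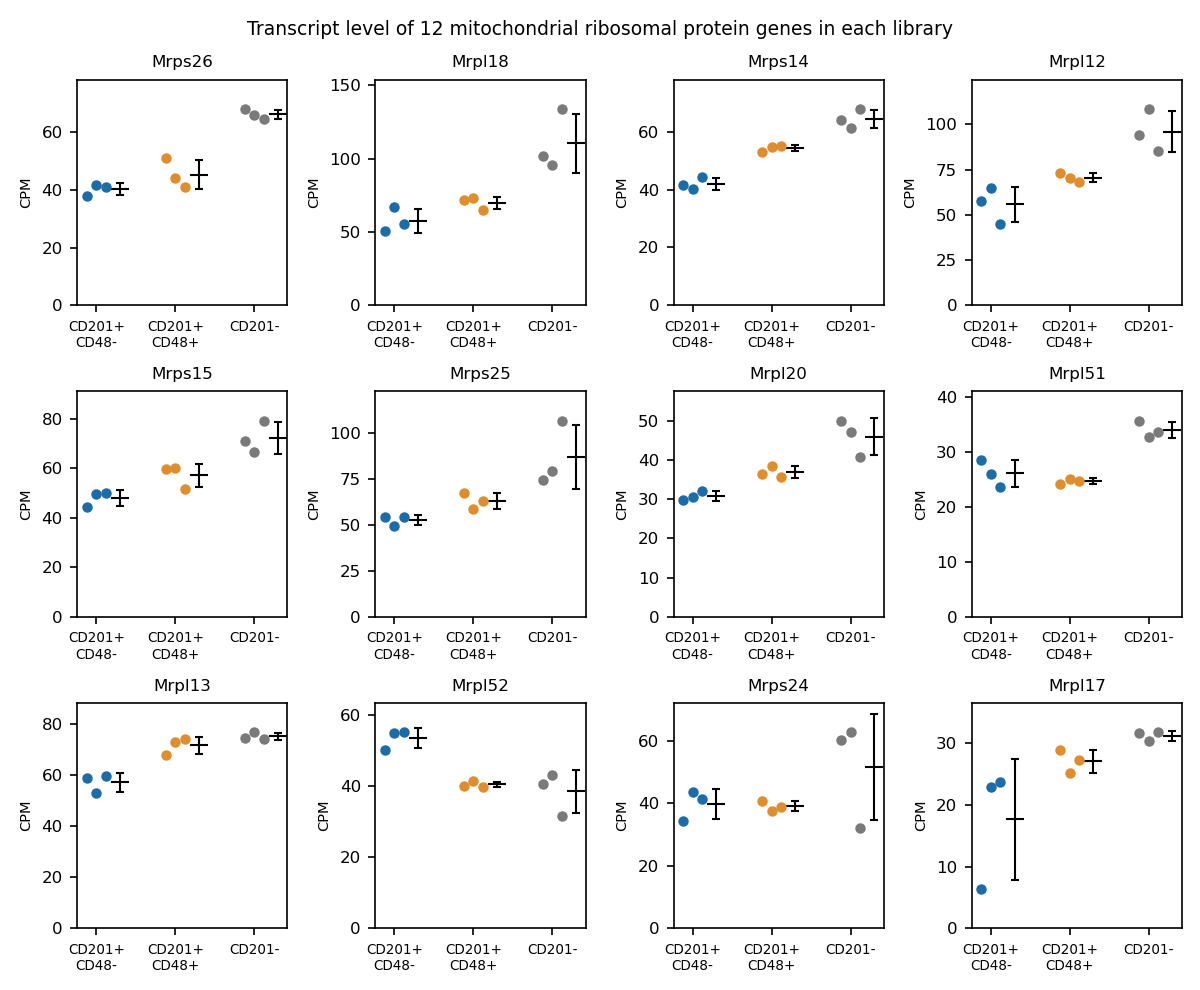
CPM in each library for 12 mitochondrial ribosomal protein genes, on linear axes from 0. Each point is 1 library and the bar beside a group is its mean ± SD (n = 3). Mrps14 separates all 3 groups, Mrpl51 is low in both CD201+ populations, Mrpl13 is low in CD201+CD48- alone, Mrpl52 is high there, and single low libraries stand out for Mrps24 (CD201-) and Mrpl17 (CD201+CD48-).

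Levels were compared between genes only per length, as CPM per kilobase (kb) of the canonical transcript averaged over the 3 groups. The median of the 78 genes was 17.2 CPM per kb, with 17.6 for the large and 17.2 for the small subunit. The highest were Mrps9 at 58.0, Mrpl13 at 55.5, Mrpl20 at 49.6, Mrpl42 at 48.7 and Mrps21 at 47.8 CPM per kb. The lowest were Mrpl53 at 2.45, Mrpl55 at 2.64 and Mrpl17 at 3.44 CPM per kb. Canonical transcripts ran from 555 bases (Mrps21) to 7366 bases (Mrpl17), and where cells use a shorter form than the canonical one the level per kb is understated. Mrps9, the most abundant, stood at 92.7, 93.7 and 92.5 CPM in CD201+CD48-, 106, 109 and 108 in CD201+CD48+ and 114, 122 and 150 in CD201- libraries. Its groups did not overlap, and CD201+CD48- against CD201- gave -0.47 ± 0.09 (adjusted p = 6.80e-04). Mrps21 stood at 22.1 to 22.8 CPM in CD201+CD48- and 28.8 to 40.5 in CD201- libraries, a change of -0.56 ± 0.14 (adjusted p = 0.00373). Mrpl55 stood at 8.41 to 10.6 and 9.86 to 12.6 CPM in these groups, which overlapped, and did not pass (-0.30 ± 0.18, adjusted p = 0.19).

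Other genes of the same machinery were counted by lists, to be read beside the 23.9% and 14.3% of all tested genes called lower in CD201+CD48- and in CD201+CD48+ against CD201- cells. Of 5 mitoribosomal proteins with other names that were tested, 4 fell in CD201+CD48- against CD201- cells and 4 in CD201+CD48+, and 1 was called lower between the CD201+ populations. Ptcd3, a small subunit protein, stood at 65.4, 81.7 and 103 CPM (means in CD201+CD48-, CD201+CD48+ and CD201- cells) and was the one called in all 3, at -0.66 ± 0.09, -0.33 ± 0.08 and -0.33 ± 0.09. Chchd1 changed by -0.56 ± 0.09, Gadd45gip1 by -0.65 ± 0.11 and Aurkaip1 by -0.28 ± 0.10 in CD201+CD48- against CD201- cells.

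Of 25 factors that assemble the mitochondrial ribosome, 8 fell in CD201+CD48- and 3 in CD201+CD48+ cells, each against CD201- (32% and 12%), with 0 higher and medians of -0.21 and -0.07. Noa1, a GTPase of small subunit assembly, fell by 0.53 ± 0.11, the assembly factor Rbfa by 0.42 ± 0.10 and the ribosomal RNA methyltransferases Mrm1 and Rnmtl1 by 0.69 ± 0.17 and 0.57 ± 0.16. Of 13 translation factors, 3 and 2 fell (23.1% and 15.4%), shares near those of all genes, among them the elongation factors Gfm1 (-0.67 ± 0.11) and Tsfm (-0.61 ± 0.14) in CD201+CD48- against CD201- cells. Of 20 genes that charge mitochondrial tRNAs, 7 and 1 fell (35% and 5%, the latter below the background), with Yars2 at -0.60 ± 0.11 and Mars2 at -0.62 ± 0.14.

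Of 13 genes of mitochondrial DNA maintenance and transcription, 4 fell (30.8%) and 1 rose in CD201+CD48- against CD201- cells, and 1 fell in CD201+CD48+ (7.69%). The nuclease Mgme1 changed by -0.76 ± 0.10, the helicase Twnk by -0.59 ± 0.09 and Tfam, which packs the genome and helps to start its transcription, by -0.48 ± 0.11. The polymerase Polg rose by 0.35 ± 0.11. Of 15 genes of mitochondrial RNA processing, 6 and 3 fell (40% and 20%), with Lrpprc, which stabilises the mRNAs, at -0.60 ± 0.09 and Elac2, which trims tRNA ends, at -0.67 ± 0.11. Of 9 transcription factors known for mitochondrial biogenesis, 5 fell (55.6%) and 1 rose in CD201+CD48- cells, and 1 fell (11.1%) and 1 rose in CD201+CD48+ cells. Myc changed by -0.96 ± 0.12, the coactivator Pprc1 by -0.43 ± 0.07 and Gabpa, the factor of the ETS motif above, by -0.29 ± 0.08. The one that rose, Ppargc1a, had 8 to 14 counts per CD201+CD48- library and 0 to 2 per CD201- library.

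Transcripts encoded in mitochondrial DNA differed less. Of 13 tested, mt-Nd1 alone was called lower in CD201+CD48- against CD201- cells, at -0.30 ± 0.10, a call lost with library size alone, and 0 were called in the other comparisons. Their median of -0.07 in the first comparison turned to 0.10 with library size alone. Of 78 cytosolic ribosomal proteins, 22 fell in CD201+CD48- (28.2%) and 15 in CD201+CD48+ cells (19.2%) against CD201-, with medians of -0.15 and -0.13 (0.02 and -0.01 with library size alone, which called 10 and 5 lower), and 0 were called between the CD201+ populations, where their median was -0.0054. Rpl14 changed by -0.52 ± 0.09 in CD201+CD48- against CD201- cells. The S phase markers had medians of -0.84, -0.40 and -0.45 in the 3 comparisons in the order given, and the G2 and M phase markers -0.65, -0.25 and -0.46, all further from 0 than the medians of the 78 genes. The plot of related lists shows the values gene by gene, and differences between lists were not tested.

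**Figure D4:**
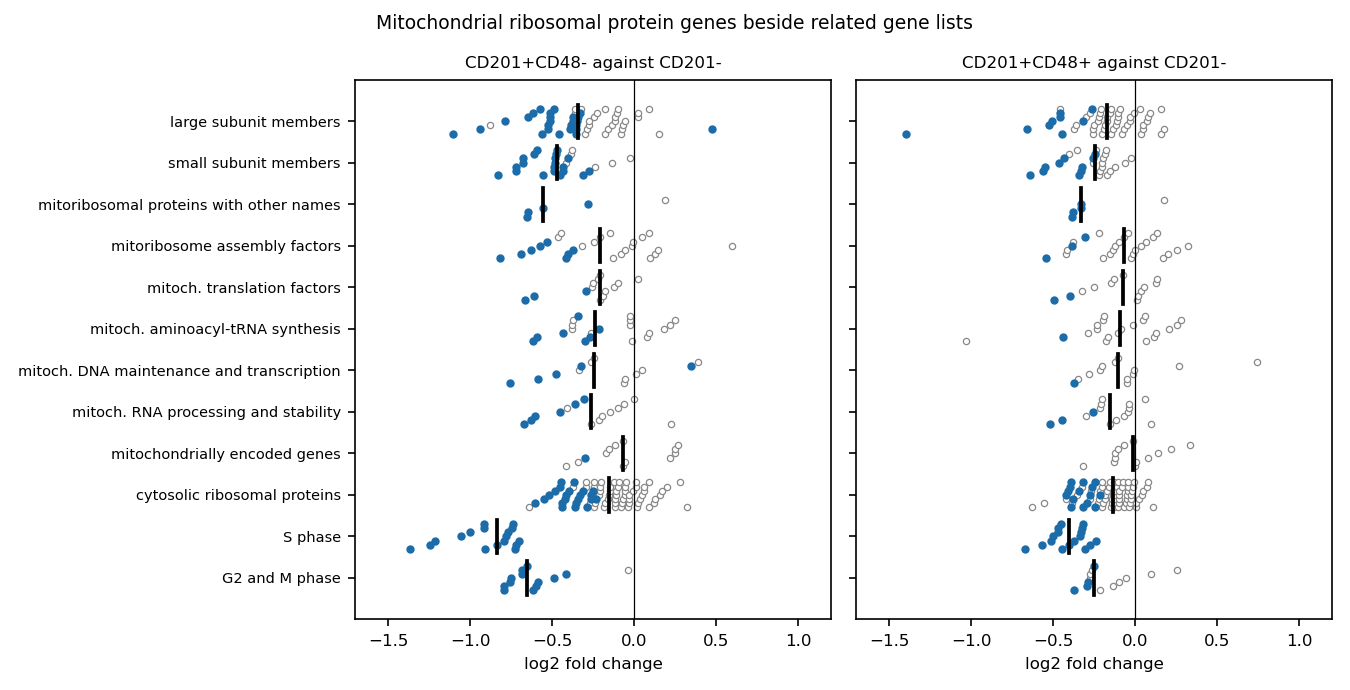
log2 fold changes of single genes in 12 lists, in CD201+CD48- (left) and CD201+CD48+ (right) against the same CD201- libraries. Filled points have an adjusted p under 0.05, open points do not, and vertical bars are list medians. The medians of both subunits lie below 0 in both panels, further from 0 on the left, and those of the mitochondrially encoded genes lie close to 0, on the other side of it with library size alone.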

How the data were processed

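Bulk RNA-seq of 9 libraries was analysed. The authors deposited raw counts, whole numbers per gene symbol, and a table of normalized signal, which equalled the counts divided by 1 constant per library (largest relative deviation 5.1e-10) and served for an alternative alone. The submitters' processing notes name the build mm10 and DESeq2, while the aligner, the counting tool and strand use were not given in the sources used here. A further 3 columns of per-sample values in the raw table matched no label and were not used.

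Genes were kept by filterByExpr of edgeR 4.0.16 (minimum count 10), which kept at least 99.74% of each library's reads, scaled by TMM and tested by the quasi-likelihood F test (glmQLFit, robust; 1 fit of all 9 libraries by group, with a common biological coefficient of variation of 8.64%), using R 4.3.3. Benjamini-Hochberg adjustment ran over all genes tested, with a threshold of 0.05, and unless another tool is named adjusted p-values in the text are from this test. Standard errors were taken as the size of the log2 fold change over the root of F. Lengths are Ensembl canonical transcripts (GENCODE vM39), and gene positions, overlaps and promoters come from RefSeq (GRCm38.p6), in which all 78 symbols matched. The alternatives were other scalings (RLE, upper quartile, library size alone), DESeq2 1.42.0, limma 3.58.1 on voom weights and on log2 of the deposited signal plus 1, no count filter, a minimum count of 50, only the groups compared, a replicate block and leaving out each library. On simulated counts for CD201+CD48- against CD201- (11372 genes) the fit recovered 21.5% of 65 genes changed 1.3-fold, 71.6% of 67 changed 1.5-fold and 83.3% of 66 changed 2-fold. With so few genes changed the adjustment is stricter than in the real comparison, where 2778 were called lower and 2807 higher. Python 3.11.15 and matplotlib 3.10.9 drew the figures.

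The genes described, the related lists and the markers were chosen with earlier results of these data known. Genes were named by rule: the 8 smallest p-values per comparison and direction, the 5 smallest and 5 largest log2 fold changes in CD201+CD48- against CD201- cells, the 5 highest and 3 lowest levels per length, the S18 homologues, up to 4 genes whose means broke the common order, and up to 4 per related list.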

Additional observations from a re-analysis of the deposited data

How the results depend on the processing

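Calls depended on the depth of 3810123 to 7072885 counts and on 3 libraries per group. On simulated counts changes near 1.3-fold were mostly missed. Far fewer genes were changed there than were called in these data, so that share cannot be carried over to the calls reported. Scaling by library size alone raised the median of all tested genes by 0.17, 0.13 and 0.03 in CD201+CD48- against CD201-, CD201+CD48+ against CD201- and CD201+CD48- against CD201+CD48+, and turned the split of all genes called lower and higher from 2778 and 2807 to 1685 and 3974 in the first and from 1661 and 1723 to 851 and 2701 in the second. Under it the genes called lower numbered 22, 7 and 2 in the 3 comparisons in that order, those called higher 2, 1 and 1, and the medians were -0.21, -0.0685 and -0.14, but relative to all genes they were -0.38, -0.20 and -0.17, as in the reported fit. Upper-quartile scaling gave splits of 2287 and 3224 and of 1185 and 2161, medians of -0.30 and -0.13 in the first 2 comparisons and 2 genes called higher in the first. The minimum count of 50 dropped 2 of the 78 genes and gave medians of -0.34 and -0.17. In the second comparison 9 of 77 genes were called lower with only the groups compared, beside 1174 of all 11225 genes tested there, a similar share. In the third, DESeq2 called 2 lower, the fit without a count filter 9 and the fit of only the groups compared 17. Over all tested genes they called 588 of 11619, 966 of 21720 and 1576 of 11527 lower.

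Leaving out 1 library at a time gave 35 to 47 genes called lower, 1 to 2 called higher and medians of -0.40 to -0.34 in the first comparison, 6 to 22 lower, 0 to 1 higher and medians of -0.22 to -0.19 in the second, and 1 to 19 lower, 0 to 1 higher and medians of -0.18 to -0.13 in the third. Both the 2 called higher in the first and the 1 in the second arose without CD201- replicate 3. Over all tested genes the same fits called 2321 to 3071, 1073 to 2115 and 360 to 1712 lower in the 3 comparisons. The cause of these shifts was not tested. Values of the named genes, 1758 under alternatives, kept direction and side of the threshold in 1557, lost the call in 127, gained one in 34 and changed sign with no call in 40. Of 1026 counts for related lists, 873 stayed within 1.5 times.

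Replicates of the same number did not visibly deviate together, with correlations from -0.113 to 0.0447 over 9 pairs of libraries. With 3 libraries per group such correlations cannot exclude that the numbers pair the samples. A fit with the replicate number as a block called 41, 14 and 5 genes lower in the 3 comparisons, beside 2632, 1472 and 569 of all tested genes. Its medians were -0.38, -0.20 and -0.17, with 1, 0 and 1 of the 78 genes called higher.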

Other observations

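Many of these genes share a start region with a neighbour. Of the 69 with a promoter window, 27 (39.1%) had a gene transcribed the other way from a start within 1000 bases, against 21.5% of 8936 tested genes. Of 26 such partners that were tested, 11 fell and 2 rose in CD201+CD48- against CD201- cells (edgeR quasi-likelihood test, Benjamini-Hochberg adjustment), with a median log2 fold change of -0.25, where 23.9% of all tested genes were called lower and 24.2% higher. A pair of them, Mrpl46 and Mrps11, belong to the 78 genes themselves, and of the other 24 partners 9 fell and 2 rose, with a median of -0.24. The list was drawn up after the values of the 78 genes were known.

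Mrpl46 and Mrps11, whose starts lie 42 bases apart, are partners of each other and both fell, by 0.52 ± 0.11 and 0.83 ± 0.21. Mrpl46 stood at 26.5, 31.6 and 25.9 CPM in CD201+CD48- and 36.7, 40.02 and 43.4 in CD201- libraries, with no overlap. Both genes were also called lower in the pairs of Mrpl18 with Tcp1, Mrpl40 with Hira, Mrpl47 with Ndufb5, Mrpl51 with Ncapd2 and Mrps7 with Gga3. In some pairs the ribosomal gene alone was called, as for Mrps5 and Mrps27, and in others the partner alone. Ska3, a protein of the mitotic spindle attachment, whose start lies 76 bases from that of Mrpl57, was at 26.9 ± 1.07 and 46.7 ± 3.64 CPM (SD, n = 3), a change of -0.79 ± 0.11, beside -0.28 for Mrpl57 (adjusted p = 0.0624). Eme1, a DNA repair nuclease subunit 48 bases from Mrpl27, changed by -0.88 ± 0.16, beside -0.13 for Mrpl27 (adjusted p = 0.646). Twnk, the mitochondrial helicase 116 bases from Mrpl43, changed by -0.59 ± 0.09, beside -0.25 for Mrpl43 (adjusted p = 0.0806). The lipase gene Pnpla7, 935 bases from Mrpl41, and Tmem63b, 131 bases from Mrpl14, rose by 0.58 ± 0.09 and 0.54 ± 0.13. The annotations of Mrpl57, Mrpl27, Mrpl43, Mrpl14, Mrpl18 and Mrps7 overlap those of their partners. Reads of both cannot be told apart there if they were counted without strand. A difference between a gene and its partner was not tested.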
